A study of Homo sapiens with 9 samples.

Results

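Genes of homologous recombination and of the Fanconi anaemia pathway were followed in MEC1, an established line of chronic lymphocytic leukaemia (CLL) B cells. The 42 genes were chosen by name, as the rows of the count table whose symbol was on a list of repair factors, out of 59050 symbols in the table. All 42 were measured above the filter on low values, as were 13463 genes in all. RNA-seq had been run on 9 samples in 3 groups of 3: MEC1 cells in conventional 2D culture (2D), and MEC1 cells bioprinted in a 3D hydrogel scaffold and collected on day 7 (3D_7d) or day 14 (3D_14d). The sample columns call the cells MECPGK in every group. The labels give a day for the 3D samples alone. Time in culture therefore cannot be told apart from the form of culture in a comparison with 2D. Unless another group is named, a change on day 7 or day 14 is against 2D. RNA of the scaffolds went through TRIzol, DNase and a column, and RNA of the 2D cells through the column kit alone, so culture and extraction cannot be told apart in a comparison with 2D. Both 3D time points shared 1 extraction route.

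Homologous recombination repairs breaks in both DNA strands by copying an intact sister chromatid. The MRE11-RAD50-NBN complex finds the break and activates the kinase ATM, nucleases trim the ends to single strands, BRCA1, BRCA2 and their cofactors prepare the strand for pairing with its template, and helicases and nucleases take the joined molecules apart. The Fanconi pathway acts on crosslinks between the strands: a core complex attaches ubiquitin to FANCD2 and FANCI, which brings in nucleases and then recombination. Most of this machinery is used in S and G2 phase, and many of its genes are transcribed with the cell cycle. In CLL, ATM is among the genes that are recurrently lost.

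Library totals lay between 54662799 and 85968686 counts. The 3D_14d replicates were the least alike: the chi-square of their counts per gene lay between 155 and 305, against 22.5 to 81.9 between replicates of the other groups, and 3D_14d replicate 1 lay farthest from its own group (root mean square log2 distance 0.801). Of the 7 B cell markers, 6 were above the filter and their summed level was 2518 to 2539 CPM (counts scaled to library size) in 2D, 2775 to 3488 in 3D_7d and 3439 to 3794 in 3D_14d, with CD5 at 0.669 CPM or less in every sample. The 8 T and NK cell markers summed to 7.26 CPM or less and the 6 myeloid markers to 5.15 or less. The 6 stromal and endothelial markers summed to 19.5 to 23.9 CPM in 2D, 37.9 to 54.7 in 3D_7d and 50.8 to 79.2 in 3D_14d. Of these, PECAM1 alone rose, at 12.6 to 15.8 CPM in 2D, 34.6 to 49.9 in 3D_7d and 45.7 to 77.5 in 3D_14d. COL1A1 was lower in 3D, at 6.74 to 7.38, 1.48 to 4.48 and 1.58 to 4.74 CPM, and the others were at 0.552 or less in every sample. The 4 epithelial and erythroid markers summed to 5.06 CPM or less. Their part in the results was not tested.

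On day 7 most of the called members were lower and 3 were higher, and on day 14 every called member was lower. In 3D_7d vs 2D, 17 members (40.5%) were down-regulated, 3 (7.14%) were up-regulated and 22 did not pass an adjusted p of 0.05, whereas 21.2% of all genes tested were called lower and 22.2% higher. Without any 1 of the 2D replicates, or without 3D_7d replicate 2 or 3, 1 member, ATRIP, was higher on day 7, and without 3D_14d replicate 1 there were 6. In that last fit 27.0% of all genes were called higher. In 3D_14d vs 2D, 29 members (69.0%) were down-regulated by edgeR and none was up-regulated, against 17.2% and 19.0% of all genes, and 0 members were higher at an unadjusted p under 0.05 or by DESeq2's Wald test. In 3D_14d vs 3D_7d, 24 members (57.1%) were lower on day 14 and none was higher by edgeR, against 13.6% and 14.5% of all genes, while 1 member, RMI2, was higher at an unadjusted p under 0.05 and by DESeq2's Wald test. The median log2 fold change of the members was -0.32 on day 7, -1.21 on day 14 and -0.70 between the time points, while the median of all genes was -0.00, 0.02 and -0.00. The comparisons with 2D share the same 2D samples, so their counts are given side by side only.

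All 17 members called lower on day 7 were also lower than 2D on day 14. Both comparisons use the same 2D samples, which by itself favours such an overlap, and the overlap over all genes is not given. Of these, 9 were lower in all 3 comparisons, among them BRCA1, BRCA2, XRCC2, EME1 and POLQ, and 8 were not called between the time points, among them ATM, CHEK2, RAD50 and UBE2T. A further 10, among them CHEK1, EXO1, BLM, FANCD2 and FANCI, were not called on day 7 and were lower on day 14 against both other groups. BRIP1 and RMI1 were called on day 14 against 2D alone, and 3 members, FANCF, PALB2 and RAD51D, between the time points alone. The 7 members called in no comparison were BARD1, FANCE, FANCL, HELQ, MUS81, RAD51C and SLX4. These classes rest on the threshold, and the members that change class when 1 library is left out are named with their role.

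The summed level of the 42 members was 1606 to 1739 CPM in 2D, 1263 to 1417 in 3D_7d and 726 to 937 in 3D_14d, and the groups did not overlap. Without 3D_14d replicate 1, which had the lowest sum, 28 members were lower on day 14 than in 2D, 27 of them shared with the 29, and the median log2 fold change was -1.10. Against 3D_7d, 26 were then lower. On day 7, where that library is in neither group compared, 21 were then lower and 6 higher. Of all genes tested, 26.8% were then called lower and 27.0% higher. In RNA from bulk cultures, fewer cells with a transcript and less of it per cell cannot be told apart.

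**Figure D1:**
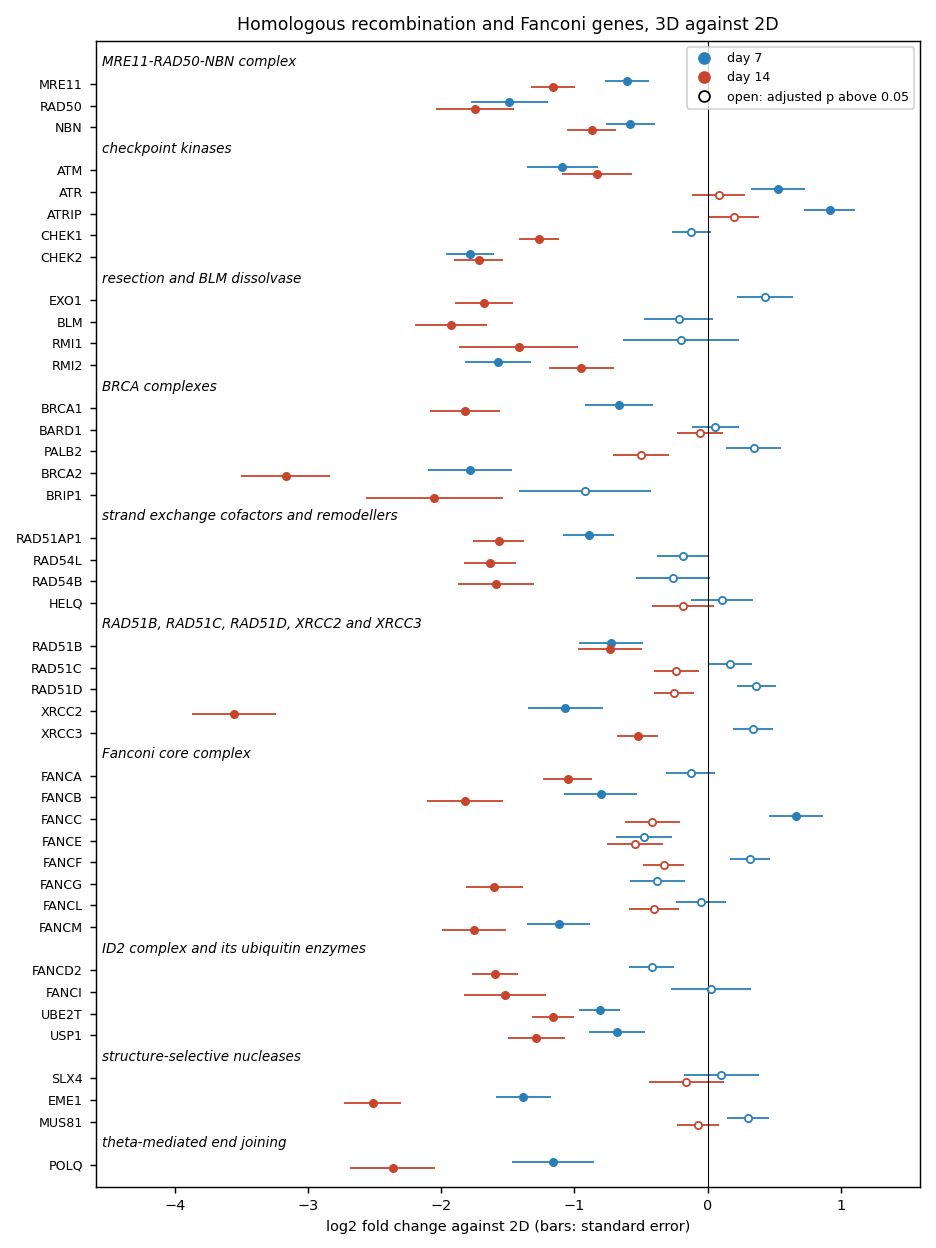
Log2 fold change against 2D of the 42 members, grouped by role, on day 7 (blue) and day 14 (red), with bars of 1 standard error (n = 3 per group) and open circles for an adjusted p above 0.05. All 29 filled red points lie below 0, down to XRCC2 at -3.56, and 3 filled blue points, ATR, ATRIP and FANCC, lie above 0.

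Promoters are shown for XRCC2, FANCD2 and EXO1, picked from the members called lower on day 14 that held an E2F-type word, defined below. They had the smallest p of these, so the word in their windows follows from the choice. XRCC2 had the deepest fall of the list, and FANCD2 and EXO1 were not called on day 7. BARD1, which did not pass the threshold in any comparison, was picked for the smallest change on day 14 among uncalled members. The sequences are from RefSeq on GRCh38.p14, 5′ to 3′ on the strand of the gene, from 250 bases before to 50 bases after a listed transcription start. Capitals mark an E2F-type word, that is TTTCCCGC, TTTCGCGC, TTTGCCGC or TTTGGCGC on either strand, letters that E2F factors of the cell cycle are known to bind.
XRCC2 (chr7:152676092-152676391, minus strand): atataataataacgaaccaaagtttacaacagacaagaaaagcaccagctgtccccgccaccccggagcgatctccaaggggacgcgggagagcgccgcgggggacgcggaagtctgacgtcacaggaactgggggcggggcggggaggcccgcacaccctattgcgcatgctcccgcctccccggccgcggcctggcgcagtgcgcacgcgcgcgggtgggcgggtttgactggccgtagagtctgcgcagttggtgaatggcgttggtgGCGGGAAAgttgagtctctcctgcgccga
FANCD2 (chr3:10026187-10026486, plus strand): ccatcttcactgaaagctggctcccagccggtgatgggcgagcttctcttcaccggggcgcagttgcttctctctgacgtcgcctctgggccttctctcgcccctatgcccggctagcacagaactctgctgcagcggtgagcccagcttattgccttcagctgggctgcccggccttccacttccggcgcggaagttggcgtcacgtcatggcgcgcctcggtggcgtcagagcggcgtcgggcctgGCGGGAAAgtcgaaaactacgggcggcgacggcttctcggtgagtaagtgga
EXO1 (chr1:241847954-241848253, plus strand): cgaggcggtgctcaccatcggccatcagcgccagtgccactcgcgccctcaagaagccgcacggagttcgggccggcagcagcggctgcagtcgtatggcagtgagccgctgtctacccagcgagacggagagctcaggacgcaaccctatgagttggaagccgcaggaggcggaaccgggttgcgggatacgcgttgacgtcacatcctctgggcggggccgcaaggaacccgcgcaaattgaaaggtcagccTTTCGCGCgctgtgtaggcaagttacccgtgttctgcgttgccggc
BARD1 (chr2:214809634-214809933, minus strand): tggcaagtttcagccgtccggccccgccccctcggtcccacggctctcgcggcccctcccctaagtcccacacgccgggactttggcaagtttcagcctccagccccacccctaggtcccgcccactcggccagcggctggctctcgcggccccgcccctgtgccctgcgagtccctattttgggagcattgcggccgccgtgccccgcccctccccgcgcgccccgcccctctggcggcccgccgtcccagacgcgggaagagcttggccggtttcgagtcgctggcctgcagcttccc

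With the start site as base 1 and no base 0, the word lay at 22 to 29 in XRCC2, at -2 to 6 in FANCD2 and at 5 to 12 in EXO1. RefSeq windows were matched for 38 of the 42 members. An E2F-type word was in a window of 6 of the 38 (15.8%), EXO1, FANCA, FANCC, FANCD2, RMI1 and XRCC2, and in 3.99% of 27305 genes with a window. Among members called lower on day 14, the median log2 fold change was -1.60 for the 5 with a word and -1.68 for the 20 without. Among uncalled members it was -0.41 for the 1 with a word, FANCC, and -0.21 for the 12 without. Being split by the call itself, these medians cannot show whether the word goes with the change. The letters TTTGAA, which can hold a CHR element of mitotic genes, were in 18.4% of the members and 18.2% of all genes, and CCAAT, the NF-Y box, in 52.6% and 39.7%, both counted on either strand and free to overlap other words. A match is only these letters in the window.

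All 3 genes of the break-sensing MRE11-RAD50-NBN complex were down-regulated at both time points, against 21.2% of all genes on day 7 and 17.2% on day 14. MRE11, the nuclease of the complex, was at 45.8, 44.9 and 53.8 CPM in 2D, 35.0, 34.9 and 25.2 in 3D_7d and 21.8, 22.1 and 20.7 in 3D_14d. Every 3D_7d sample was below every 2D sample and every 3D_14d sample below every 3D_7d sample, with a log2 fold change of -0.60 ± 0.17 (SE, adjusted p = 0.011) on day 7. The call of MRE11 between the time points was lost without 3D_7d replicate 1, 3D_7d replicate 2 or 3D_14d replicate 3 (log2 fold change -0.53 to -0.47, adjusted p = 0.053 to 0.10). RAD50, the ATPase that tethers the DNA ends, had 19.4, 16.9 and 16.7 CPM in 2D, 7.49, 5.90 and 5.48 in 3D_7d and 2.93, 5.29 and 7.57 in 3D_14d. The 3D groups overlapped each other and lay below 2D, with a log2 fold change of -1.49 ± 0.29 (SE, adjusted p = 0.0014) on day 7. NBN, the subunit that recruits ATM, had 79.9, 78.3 and 78.6 CPM in 2D, 55.0, 54.5 and 49.0 in 3D_7d and 30.0, 45.5 and 53.9 in 3D_14d. Its 3D samples were all below 2D, and the day 7 call was lost without 3D_7d replicate 3 (log2 fold change -0.57, adjusted p = 0.064). RAD50 shares 91.0% of its exonic bases with a second annotated gene on the same strand, so its level is uncertain.

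The checkpoint kinases went different ways. CHEK2, the effector kinase below ATM, was at 42.6, 46.7 and 47.0 CPM in 2D, 12.5, 14.3 and 12.8 in 3D_7d and 12.5, 17.4 and 11.5 in 3D_14d. Both 3D groups were far below 2D and overlapped each other, with a log2 fold change of -1.78 ± 0.18 (SE, adjusted p = 2.0e-05) on day 7 and of -1.72 ± 0.18 (SE, adjusted p = 3.4e-05) on day 14. ATM, the kinase activated by broken ends, was at 51.9, 57.3 and 88.1 CPM in 2D, 45.1, 24.8 and 22.8 in 3D_7d and 32.1, 38.6 and 40.1 in 3D_14d. Its 3D samples were all below 2D, with a log2 fold change of -1.09 ± 0.27 (SE, adjusted p = 0.0054) on day 7, but the day 14 call was lost without 2D replicate 3 or without any 1 of the 3D_14d replicates (log2 fold change -0.89 to -0.60, adjusted p = 0.050 to 0.11). CHEK1, the effector kinase below ATR, was at 40.9, 44.5 and 45.2 CPM in 2D, 37.4, 43.3 and 39.3 in 3D_7d and 20.3, 16.3 and 17.6 in 3D_14d. The 3D_7d samples overlapped 2D (log2 fold change -0.12, 95% interval -0.44 to 0.20), and the 3D_14d samples were below both, with a log2 fold change of -1.27 ± 0.15 (SE, adjusted p = 7.4e-05) against 2D and of -1.15 ± 0.15 (SE, adjusted p = 0.00035) against 3D_7d.

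ATR and ATRIP, the kinase and its partner that sense single-stranded DNA coated by RPA, were 2 of the 3 members up-regulated on day 7. ATRIP was at 17.8, 23.9 and 23.8 CPM in 2D, 35.6, 41.3 and 47.0 in 3D_7d and 26.5, 28.6 and 20.1 in 3D_14d. The 3D_7d samples were above all others and the 3D_14d samples overlapped 2D, with a log2 fold change of 0.92 ± 0.19 (SE, adjusted p = 0.0020) on day 7. ATRIP was lower in 3D_14d than in 3D_7d, a call lost without 3D_7d replicate 3 (log2 fold change -0.60, adjusted p = 0.069). ATRIP shares 28.3% of its exonic bases with TREX1 on the same strand, which had no count in any sample. How reads in shared bases were counted is not given. The level of ATRIP is therefore uncertain, and the absence of counts does not show that TREX1 was silent. ATR was at 11.2, 16.1 and 16.0 CPM in 2D, 23.2, 19.9 and 19.4 in 3D_7d and 14.2, 13.1 and 18.7 in 3D_14d. The 3D_7d samples were above 2D, with a log2 fold change of 0.53 ± 0.20 (SE, adjusted p = 0.049), but the call was lost in 12 of 19 alternative settings, among them the omission of any 1 of the 2D or 3D_7d replicates (log2 fold change 0.34 to 0.57, adjusted p = 0.092 to 0.26). Without 3D_14d replicate 3, ATR was called lower in 3D_14d than in 3D_7d (log2 fold change -0.61, adjusted p = 0.046).

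Among genes of end resection and of the BLM dissolvase, all 4 were lower on day 14 than in 2D and only RMI2 was lower on day 7. Of all genes, 17.2% were called lower on day 14 and 21.2% on day 7. EXO1, an exonuclease that lengthens the single strand, was at 41.5, 43.2 and 45.2 CPM in 2D, 64.9, 51.0 and 59.6 in 3D_7d and 9.28, 18.1 and 13.1 in 3D_14d. Its 3D_7d samples were above 2D without passing the threshold (log2 fold change 0.43, 95% interval -0.02 to 0.89), and its 3D_14d samples were below both, with a log2 fold change of -1.68 ± 0.22 (SE, adjusted p = 0.00012) against 2D and of -2.11 ± 0.22 (SE, adjusted p = 0.00010) against 3D_7d. Without 3D_14d replicate 1 or replicate 2, EXO1 was called higher on day 7 (log2 fold change 0.42 and 0.43, adjusted p = 0.024 and 0.046). BLM, the helicase that dissolves joined molecules, was at 39.9, 45.0 and 46.0 CPM in 2D, 39.9, 37.4 and 35.2 in 3D_7d and 6.0, 13.0 and 15.3 in 3D_14d. The 3D_14d samples were below all others, with a log2 fold change of -1.71 ± 0.27 (SE, adjusted p = 0.00093) between the time points.

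RMI1, a scaffold of the BLM complex, was at 21.2, 20.6 and 19.2 CPM in 2D, 16.5, 19.3 and 17.3 in 3D_7d and 2.02, 7.06 and 13.7 in 3D_14d. The 3D_14d replicates ranged from 2.02 to 13.7 CPM and were all below the rest, and the call against 2D was lost without 2D replicate 1, 2D replicate 2 or 3D_14d replicate 2 (log2 fold change -1.44 to -1.37, adjusted p = 0.051 to 0.073). Between the time points RMI1 was called lower when 3D_14d replicate 1 or replicate 3 was left out (log2 fold change -0.75 and -1.96, adjusted p = 0.035 and 0.0077). RMI2, its partner, was at 81.2, 87.2 and 53.1 CPM in 2D, 29.3, 19.2 and 25.6 in 3D_7d and 35.6, 50.4 and 28.7 in 3D_14d. Both 3D groups were below 2D, with a log2 fold change of -1.58 ± 0.25 (SE, adjusted p = 0.00033) on day 7. The time points overlapped, and RMI2 was called higher on day 14 than on day 7 without 2D replicate 3 or 3D_14d replicate 3 (log2 fold change 0.64 to 0.80, adjusted p = 0.038 to 0.050).

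**Figure D2:**
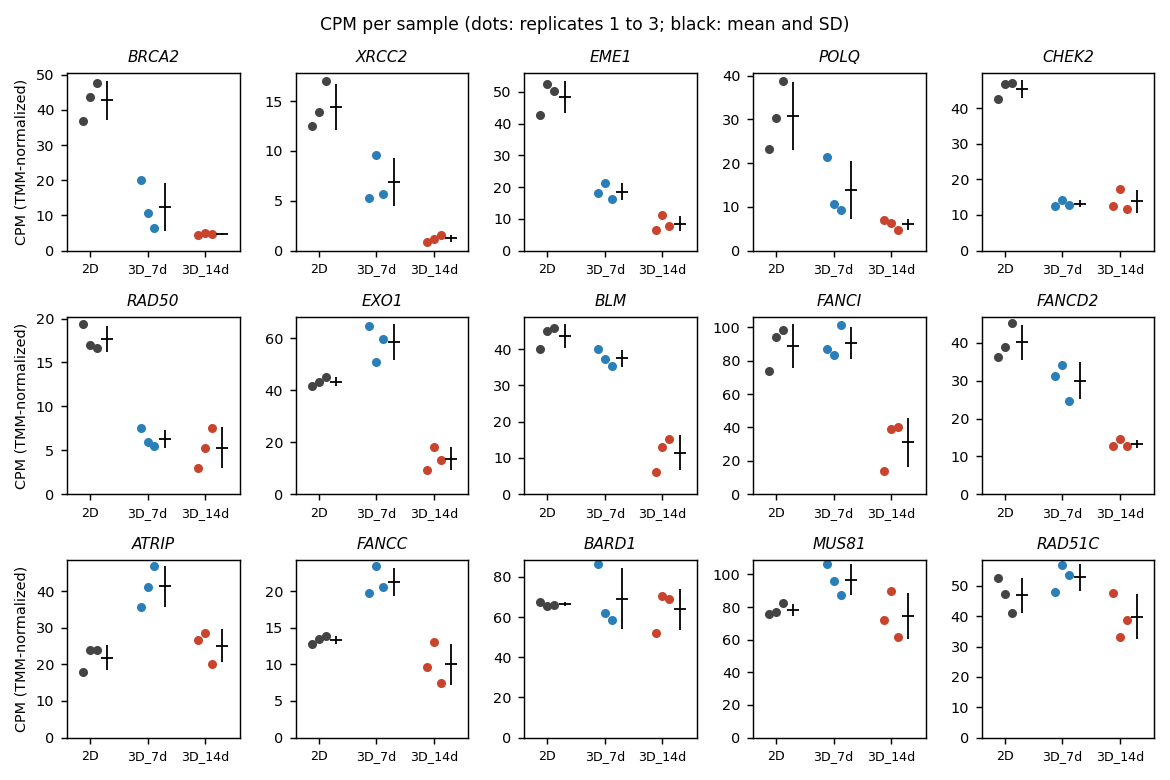
CPM in each sample (dots, replicates 1 to 3) with the mean and SD (black, n = 3) for 15 members, each panel with its own linear axis from 0. BRCA2, XRCC2, EME1 and POLQ step down from 2D to 3D_7d to 3D_14d, CHEK2 and RAD50 are below 2D in both 3D groups, which overlap, EXO1, BLM and FANCI are low in 3D_14d alone, and ATRIP and FANCC are high in 3D_7d alone.

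The BRCA complexes held the deepest fall but one of the list beside a gene that passed no threshold. BRCA2, a mediator of strand exchange on single-stranded DNA, was at 36.8, 43.8 and 47.7 CPM in 2D, 20.1, 10.6 and 6.50 in 3D_7d and 4.5, 5.04 and 4.69 in 3D_14d. The 3 groups did not overlap, and BRCA2 was 9.01-fold lower on day 14, with a log2 fold change of -3.17 ± 0.33 (SE, adjusted p = 3.3e-05) against 2D and of -1.79 ± 0.31 (SE, adjusted p = 0.00071) on day 7. BRCA1, a ubiquitin ligase that promotes resection, was at 30.5, 34.1 and 38.3 CPM in 2D, 25.6, 18.8 and 20.6 in 3D_7d and 6.89, 14.5 and 7.72 in 3D_14d. The groups did not overlap, and BRCA1 was called lower in all 3 comparisons, but the day 7 call was lost without any 1 of the 2D replicates, 3D_7d replicate 2 or 3, or 3D_14d replicate 3 (log2 fold change -0.78 to -0.61, adjusted p = 0.050 to 0.12). BRIP1, the helicase bound by BRCA1, was at 13.5, 13.7 and 15.6 CPM in 2D, 10.8, 5.24 and 6.50 in 3D_7d and 0.685, 5.08 and 4.53 in 3D_14d. It was called lower on day 14 only, where 3D_14d replicate 1 held 37 counts, and was also called lower on day 7 without that library (log2 fold change -0.94, adjusted p = 0.0061).

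BARD1, the obligate partner of BRCA1, was at 67.5, 65.7 and 65.9 CPM in 2D, 86.6, 62.2 and 58.8 in 3D_7d and 51.9, 70.6 and 68.9 in 3D_14d. All 3 groups overlapped, and its log2 fold change on day 14 was -0.06 with a 95% interval from -0.44 to 0.32. PALB2, the bridge between BRCA1 and BRCA2, was at 19.8, 24.4 and 19.5 CPM in 2D, 25.2, 29.1 and 26.7 in 3D_7d and 10.5, 15.5 and 19.1 in 3D_14d. The 3D_7d samples lay above 2D and the 3D_14d samples below it, neither past the threshold, and PALB2 was lower in 3D_14d than in 3D_7d. Leaving out 3D_14d replicate 3 made PALB2 lower than in 2D as well (log2 fold change -0.70, adjusted p = 0.021).

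Of the cofactors of strand exchange, 3 of 4 were lower on day 14, against 17.2% of all genes. RAD51AP1, which stimulates strand pairing, was at 59.0, 59.7 and 58.4 CPM in 2D, 36.1, 26.5 and 32.7 in 3D_7d and 14.7, 24.0 and 20.9 in 3D_14d. The groups did not overlap, with a log2 fold change of -0.89 ± 0.19 (SE, adjusted p = 0.0024) on day 7 and of -1.57 ± 0.19 (SE, adjusted p = 9.5e-05) on day 14. Its call between the time points was lost without 3D_7d replicate 1 or 3D_7d replicate 3 (log2 fold change -0.58 and -0.63, adjusted p = 0.060 and 0.061). RAD54L, a DNA motor of strand exchange, was at 35.4, 39.4 and 42.7 CPM in 2D, 39.1, 33.9 and 30.3 in 3D_7d and 13.1, 15.4 and 9.33 in 3D_14d. The 3D_7d samples overlapped 2D and the 3D_14d samples were below both, with a log2 fold change of -1.63 ± 0.20 (SE, adjusted p = 8.4e-05) against 2D and of -1.45 ± 0.20 (SE, adjusted p = 0.00044) against 3D_7d. RAD54B, its relative, was at 5.61, 5.47 and 5.88 CPM in 2D, 4.93, 4.86 and 4.35 in 3D_7d and 1.22, 1.90 and 2.5 in 3D_14d. It was lower on day 14 against 2D and against 3D_7d, but shares 80.5% of its exonic bases with FSBP, so its level is uncertain. HELQ, a helicase of crosslink repair, was at 18.3, 17.0 and 24.5 CPM in 2D, 21.3, 23.9 and 19.4 in 3D_7d and 13.1, 24.2 and 15.2 in 3D_14d, with all 3 groups overlapping, and was called lower between the time points only without 3D_14d replicate 2 (log2 fold change -0.60, adjusted p = 0.045).

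RAD51B, RAD51C, RAD51D, XRCC2 and XRCC3, related proteins that form complexes with each other in recombination, ranged from the deepest fall of the list to no call. XRCC2 was at 12.5, 13.9 and 17.0 CPM in 2D, 5.31, 9.62 and 5.70 in 3D_7d and 0.889, 1.20 and 1.58 in 3D_14d. No sample of one group overlapped another group, and XRCC2 was 11.8-fold lower on day 14, with a log2 fold change of -3.56 ± 0.31 (SE, adjusted p = 1.2e-05) against 2D, of -1.07 ± 0.28 (SE, adjusted p = 0.0086) on day 7 and of -2.49 ± 0.30 (SE, adjusted p = 0.00022) between the time points. The 3D_14d values rest on few reads, with 48 counts in the lowest sample. XRCC3 was at 20.7, 20.1 and 20.6 CPM in 2D, 24.0, 25.4 and 28.3 in 3D_7d and 13.4, 15.3 and 14.0 in 3D_14d. It was above 2D on day 7 without passing the threshold and below it on day 14, and between the time points it had a log2 fold change of -0.87 ± 0.15 (SE, adjusted p = 0.0019). RAD51D was at 17.9, 18.2 and 17.5 CPM in 2D, 23.7, 24.0 and 21.5 in 3D_7d and 14.5, 14.8 and 15.8 in 3D_14d. The groups did not overlap in any comparison, and only the step from 3D_7d to 3D_14d was called, downwards, though RAD51D was called higher on day 7 without 3D_14d replicate 1 or 3 (log2 fold change 0.35 and 0.37, adjusted p = 0.037 and 0.045).

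RAD51B was called lower at both time points, but its day 7 call was lost without 2D replicate 2, 2D replicate 3, 3D_7d replicate 1 or 3D_7d replicate 3 (log2 fold change -0.75 to -0.58, adjusted p = 0.058 to 0.083). Its day 14 call was lost without 2D replicate 2, 2D replicate 3, 3D_14d replicate 1 or 3D_14d replicate 3 (log2 fold change -0.75 to -0.52, adjusted p = 0.067 to 0.080). RAD51C passed in no comparison, and was called lower between the time points without 3D_14d replicate 1 (log2 fold change -0.54, adjusted p = 0.019). XRCC3 shares 45.3% of its exonic bases with KLC1 on the other strand.

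In the Fanconi core complex, which carries the ubiquitin ligase of the pathway, 4 of 8 members were lower on day 14, against 17.2% of all genes, and 2 on day 7, a share of 25% near the 21.2% of all genes. FANCM, the translocase that anchors the complex to DNA, was at 15.3, 14.0 and 19.6 CPM in 2D, 8.41, 8.53 and 5.57 in 3D_7d and 3.85, 5.12 and 5.50 in 3D_14d. Its groups were apart, with a log2 fold change of -1.12 ± 0.24 (SE, adjusted p = 0.0024) on day 7, and FANCM was also called lower between the time points without 3D_7d replicate 3 (log2 fold change -0.79, adjusted p = 0.042). FANCB, of the catalytic module, was at 6.76, 5.25 and 8.14 CPM in 2D, 4.31, 3.91 and 3.33 in 3D_7d and 1.72, 1.56 and 2.41 in 3D_14d. Its groups did not overlap, but its day 7 call was lost without 2D replicate 1, 2D replicate 3, 3D_7d replicate 2 or 3D_7d replicate 3 (log2 fold change -0.85 to -0.69, adjusted p = 0.066 to 0.12) and its call between the time points without 3D_7d replicate 1 or 2 (log2 fold change -0.99 to -0.93, adjusted p = 0.051 to 0.054). FANCG, an adaptor of the complex, was at 71.0, 78.6 and 78.2 CPM in 2D, 65.0, 49.5 and 60.8 in 3D_7d and 18.1, 34.2 and 22.6 in 3D_14d. The 3D_14d samples were far below the rest, with a log2 fold change of -1.60 ± 0.21 (SE, adjusted p = 0.00016) against 2D and of -1.23 ± 0.21 (SE, adjusted p = 0.0017) against 3D_7d. It was called lower on day 7 as well without 3D_14d replicate 1 (log2 fold change -0.39, adjusted p = 0.049).

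FANCA, the partner of FANCG, was at 42.6, 44.5 and 47.7 CPM in 2D, 42, 39.1 and 42.4 in 3D_7d and 20.3, 28.2 and 16.6 in 3D_14d. The fall came after day 7, with a log2 fold change of -0.92 ± 0.19 (SE, adjusted p = 0.0038) between the time points, and 22.4% of the exonic bases of FANCA are shared with ZNF276 on the other strand. FANCC, of the module that holds the substrate, was the third gene up-regulated on day 7, at 12.8, 13.5 and 13.9 CPM in 2D, 19.7, 23.4 and 20.5 in 3D_7d and 9.63, 13.0 and 7.48 in 3D_14d. The 3D_7d samples were above all others and the 3D_14d samples overlapped 2D, with a log2 fold change of 0.66 ± 0.20 (SE, adjusted p = 0.019) on day 7 and of -1.08 ± 0.21 (SE, adjusted p = 0.0030) between the time points. The day 7 call of FANCC was lost without any 1 of the 2D replicates or without 3D_7d replicate 2 or 3 (log2 fold change 0.56 to 0.65, adjusted p = 0.052 to 0.087), and FANCC was called lower than 2D on day 14 without 3D_14d replicate 2 (log2 fold change -0.64, adjusted p = 0.022).

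FANCF, the scaffold beside FANCC, was at 41.9, 43.1 and 41.4 CPM in 2D, 57.6, 50.1 and 50.1 in 3D_7d and 27.8, 38.1 and 34.7 in 3D_14d. It was lower in 3D_14d than in 3D_7d, and neither comparison with 2D passed, though it was called higher on day 7 without 3D_14d replicate 1 (log2 fold change 0.31, adjusted p = 0.036). FANCE, of the same module, was at 13.6, 14.3 and 12.4 CPM in 2D, 11.3, 8.71 and 8.97 in 3D_7d and 11.7, 7.88 and 8.04 in 3D_14d and passed in no comparison, with a log2 fold change on day 14 of -0.54 and a 95% interval from -1.0 to -0.09. FANCE was called lower against 2D at both time points without 3D_14d replicate 1 (log2 fold change -0.49 on day 7 and -0.75 on day 14, adjusted p = 0.026 and 0.0083). FANCL, the ligase itself, which shares 26.7% of its exonic bases with other genes, passed in no comparison, with a log2 fold change on day 14 of -0.40, and was called lower without 3D_14d replicate 3 (log2 fold change -0.57, adjusted p = 0.033).

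All 4 genes of the ubiquitin switch were lower on day 14, and 2 of them on day 7, against 17.2% and 21.2% of all genes. UBE2T, the conjugating enzyme of the pathway, was at 109, 102 and 97.4 CPM in 2D, 59.7, 59.4 and 56.6 in 3D_7d and 56.7, 41.2 and 39.8 in 3D_14d. The 3D groups were below 2D and overlapped each other, with a log2 fold change of -0.81 ± 0.16 (SE, adjusted p = 0.0013) on day 7 and of -1.16 ± 0.16 (SE, adjusted p = 0.00018) on day 14. Without 3D_14d replicate 1 it was also called lower between the time points (log2 fold change -0.51, adjusted p = 0.0068). USP1, the enzyme that removes the ubiquitin, was at 107, 98.3 and 102 CPM in 2D, 72.8, 58.1 and 60.3 in 3D_7d and 26.5, 48.8 and 50.4 in 3D_14d. No groups overlapped, and all 3 comparisons were called, but the day 7 call was lost without 3D_7d replicate 2 (log2 fold change -0.66, adjusted p = 0.057) and the call between the time points in 13 of 19 settings, among them the omission of any 2D or 3D_7d replicate or of 3D_14d replicate 1 (log2 fold change -0.66 to -0.34, adjusted p = 0.065 to 0.14).

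FANCD2, which clamps DNA once it carries ubiquitin, was at 36.3, 39.0 and 45.3 CPM in 2D, 31.2, 34.3 and 24.7 in 3D_7d and 12.8, 14.5 and 12.6 in 3D_14d. Its samples did not overlap between groups, and the day 7 value missed the threshold (log2 fold change -0.42, 95% interval -0.78 to -0.06), with a log2 fold change of -1.60 ± 0.17 (SE, adjusted p = 4.0e-05) on day 14 and of -1.18 ± 0.17 (SE, adjusted p = 0.00065) between the time points. Without 3D_7d replicate 2 or 3D_14d replicate 1, FANCD2 was called lower on day 7 as well (log2 fold change -0.56 to -0.43, adjusted p = 0.028 to 0.039). FANCI, its partner in the clamp, was at 73.9, 94.0 and 98.6 CPM in 2D, 86.9, 83.2 and 102 in 3D_7d and 13.8, 38.8 and 40.3 in 3D_14d. The 3D_7d samples overlapped 2D and the 3D_14d samples were below both, with a log2 fold change of -1.55 ± 0.31 (SE, adjusted p = 0.0036) between the time points.

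The nuclease that cuts joined molecules is a dimer of MUS81 and EME1, and of its subunits only EME1 passed the threshold in these comparisons. EME1, the regulatory subunit, was at 42.8, 52.3 and 50.3 CPM in 2D, 18.0, 21.4 and 16.3 in 3D_7d and 6.54, 11.1 and 7.77 in 3D_14d. All 3 groups were apart, with a log2 fold change of -1.39 ± 0.21 (SE, adjusted p = 0.00024) on day 7, of -2.52 ± 0.22 (SE, adjusted p = 9.9e-06) on day 14, a 5.72-fold lower level, and of -1.13 ± 0.21 (SE, adjusted p = 0.0023) between the time points. MUS81, the catalytic subunit, was at 75.8, 76.8 and 82.6 CPM in 2D, 106, 96.2 and 87.3 in 3D_7d and 72.0, 89.9 and 61.6 in 3D_14d. It passed in no comparison, with a log2 fold change on day 14 of -0.07 and a 95% interval from -0.41 to 0.27, and was called lower between the time points without 3D_14d replicate 2 (log2 fold change -0.53, adjusted p = 0.017). SLX4, the scaffold of the nucleases, was at 5.84, 5.59 and 8.31 CPM in 2D, 7.13, 6.68 and 7.40 in 3D_7d and 7.97, 5.97 and 3.74 in 3D_14d, with all groups overlapping. POLQ, the polymerase of an error-prone route that joins resected ends by short matches, was at 23.2, 30.4 and 38.9 CPM in 2D, 21.4, 10.5 and 9.37 in 3D_7d and 7.00, 6.33 and 4.6 in 3D_14d. Every 3D sample was below every 2D sample, with a log2 fold change of -1.16 ± 0.31 (SE, adjusted p = 0.0086) on day 7 and of -2.37 ± 0.32 (SE, adjusted p = 0.00018) on day 14, and the call between the time points was lost without 3D_7d replicate 1 or 3D_14d replicate 3 (log2 fold change -0.73 and -1.04, adjusted p = 0.053 and 0.052).

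Per length of transcript, as RPKM (CPM divided by the exonic length in kilobases), UBE2T was the highest member in 2D at 117 ± 6.8 (SD, n = 3), followed by MUS81 at 29.7 ± 1.4, FANCG at 28.9 ± 1.6 and RAD51AP1 at 27.3 ± 0.29, and MUS81 and FANCG did not differ beyond their spread. SLX4 at 0.900 ± 0.21 RPKM and RAD54B at 1.24 ± 0.045 RPKM were the lowest. RAD54B shares 80.5% of its exonic bases with FSBP, so its RPKM and its rank are uncertain in every group. On day 14 UBE2T was still the highest, at 52.3 ± 11 RPKM, and MUS81 next at 28.3 ± 5.4 RPKM. XRCC2 at 0.256 ± 0.073 RPKM and BRCA2 at 0.396 ± 0.023 RPKM were then the lowest, with RAD54B at 0.410 ± 0.14 RPKM, and these 3 did not differ beyond their spread except XRCC2 from BRCA2. In 2D, XRCC2 had been at 3.03 ± 0.49 RPKM and BRCA2 at 3.57 ± 0.46 RPKM.

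**Figure D3:**
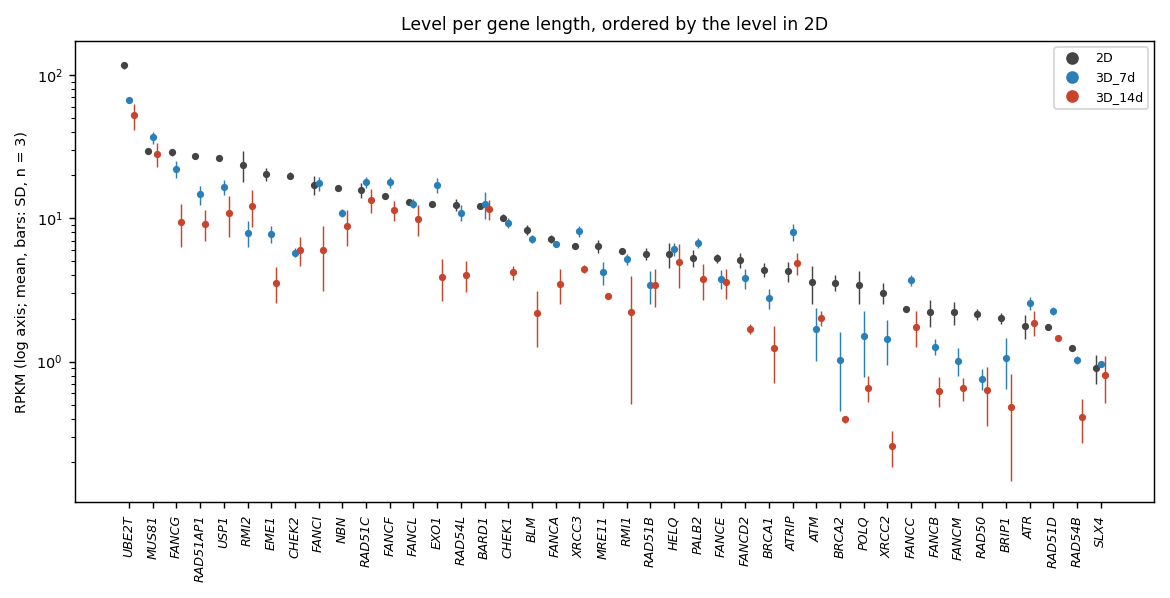
Mean RPKM with SD (n = 3) of the 42 members in 2D, 3D_7d and 3D_14d on a log axis, ordered by the level in 2D. UBE2T is highest in every group (117, 66.7 and 52.3 RPKM), and XRCC2 and BRCA2 are the lowest in 3D_14d (0.256 and 0.396 RPKM). RAD50 (91.0%) and RAD54B (80.5%) share most of their exonic bases with other genes, so their levels are uncertain.

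The rest of the pathway, in a list of 45 further recombination and Fanconi genes of which 43 were tested, is given by its counts: 3 were lower and 10 higher on day 7, 16 lower and 4 higher on day 14, and 15 lower and 2 higher in 3D_14d vs 3D_7d. The 23.3% higher on day 7 is near the 22.2% of all genes, and the 6.98% lower stands beside 21.2%. On day 14, 37.2% were lower and 9.30% higher, beside 17.2% and 19.0%. Between the time points, 34.9% were lower and 4.65% higher, beside 13.6% and 14.5%. DNA2, a nuclease of long resection, had a log2 fold change of -1.76 ± 0.18 (SE, adjusted p = 2.9e-05) on day 14. DCLRE1B, a nuclease at telomeres and crosslinks, rose on day 7, with a log2 fold change of 0.93 ± 0.16 (SE, adjusted p = 0.00072), and was lower on day 14 than on day 7, with a log2 fold change of -1.30 ± 0.17 (SE, adjusted p = 0.00029). RPA3, a subunit of the protein that coats single strands, fell on day 7, with a log2 fold change of -0.93 ± 0.21 (SE, adjusted p = 0.0031). BABAM1, of the BRCA1-A complex, was higher on day 14, with a log2 fold change of 0.76 ± 0.18 (SE, adjusted p = 0.0055). The summed level of the 43 was 1849 to 1861 CPM in 2D, 2038 to 2198 in 3D_7d and 1588 to 1836 in 3D_14d. Without the 2 that rose most on day 7, the other 41 summed to 1528 to 1555 CPM in 2D and 1559 to 1669 in 3D_7d.

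Non-homologous end joining, which rejoins ends without a template, counted 5 genes higher and 3 lower of 20 on day 7, and 1 higher and 5 lower on day 14. On day 7 that is 25% higher and 15% lower, near the 22.2% and 21.2% of all genes. On day 14 it is 5% higher and 25% lower, beside 19.0% and 17.2%. XRCC5, the Ku80 subunit, had a log2 fold change of 1.61 ± 0.15 (SE, adjusted p = 1.3e-05) on day 7, and XRCC6, the Ku70 subunit, had a log2 fold change of 0.74 ± 0.14 (SE, adjusted p = 0.0013). RIF1, which limits resection, had a log2 fold change of -1.58 ± 0.31 (SE, adjusted p = 0.0018) on day 14. In 3D_14d vs 3D_7d, 6 genes (30%) were lower and none higher by edgeR at an adjusted p of 0.05. Of all genes, 13.6% were lower and 14.5% higher. In that comparison 0 of the list were higher at an unadjusted p under 0.05 or by DESeq2. TP53BP1, a reader that blocks resection, had a log2 fold change of -1.05 ± 0.16 (SE, adjusted p = 0.00090) between the time points. The list summed to 1732 to 1767 CPM in 2D, 2614 to 2901 in 3D_7d and 1621 to 1866 in 3D_14d, so the 3D_7d samples lay above the others. XRCC5 and XRCC6, singled out after their values were seen, carried that difference: together they held 938 to 1010 CPM in 2D and 1858 to 2235 in 3D_7d, and the other 18 genes summed to 738 to 795 CPM in 2D, 629 to 756 in 3D_7d and 542 to 591 in 3D_14d.

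Genes of DNA replication and of mitosis moved beside the members and are given as values, and their part in the members' levels was not tested. Of 40 replication genes, 11 were higher and 5 lower on day 7, and 38 were lower on day 14 and 39 lower in 3D_14d vs 3D_7d, with medians of 0.21, -1.19 and -1.33 on the log2 scale. The 27.5% higher on day 7 is near the 22.2% of all genes, and the 12.5% lower stands beside 21.2%. On day 14, 95% were lower against 17.2%, and between the time points 97.5% against 13.6%. Of 31 mitosis genes tested, 29 were lower on day 7, 31 on day 14 and 11 between the time points, with medians of -1.16, -1.70 and -0.46. That is 93.5%, 100% and 35.5% lower, against 21.2%, 17.2% and 13.6% of all genes. The replication list summed to 5832 to 6077 CPM in 2D, 6515 to 7083 in 3D_7d and 2498 to 3496 in 3D_14d, and the mitosis list to 3949 to 4123, 1609 to 2201 and 1061 to 1546. The 2 replication genes that rose most on day 7 held 524 to 615 CPM in 2D and 1037 to 1162 in 3D_7d. Without them the other 38 summed to 5299 to 5462 CPM in 2D and 5478 to 5963 in 3D_7d.

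**Figure D4:**
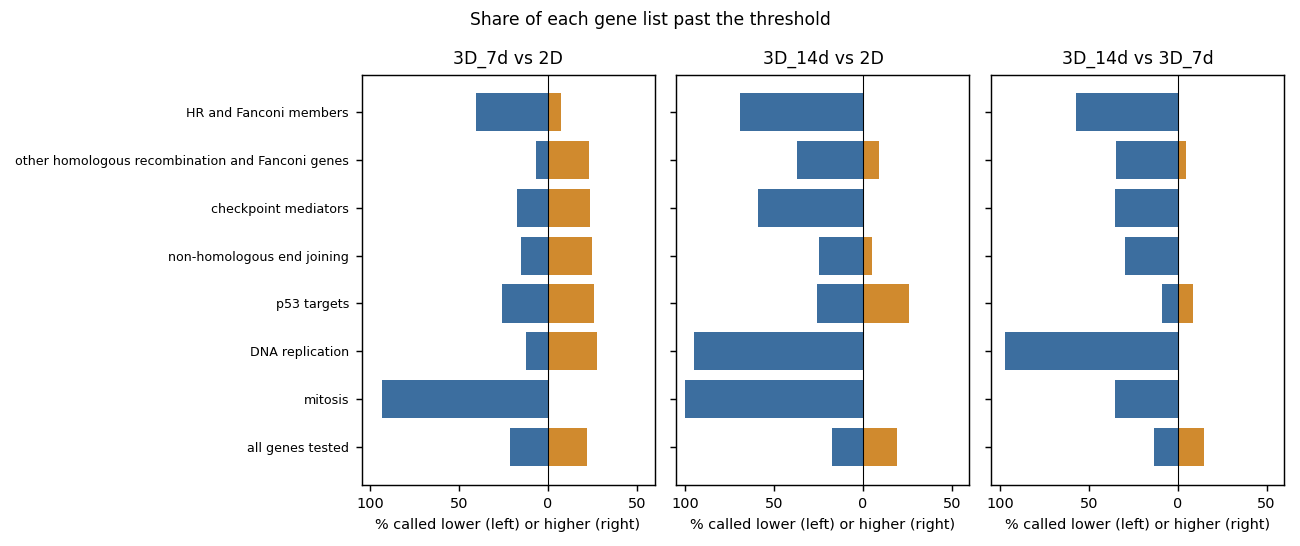
Percent of the genes tested in each list that were called lower (blue, to the left) or higher (orange, to the right) at an adjusted p of 0.05, in the 3 comparisons. The 42 members reach 40.5, 69.0 and 57.1% lower, the mitosis list 93.5, 100 and 35.5% lower and the replication list 12.5, 95 and 97.5% lower, with all genes tested at the bottom.

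**Figure D5:**
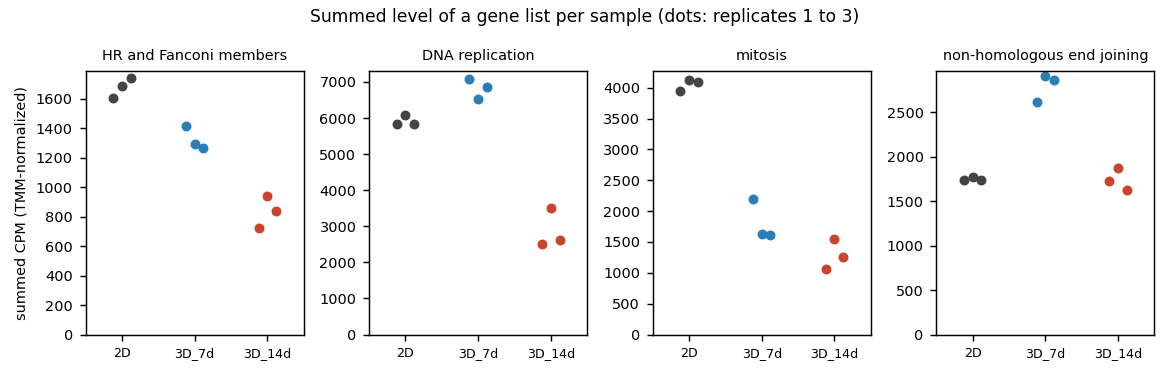
Summed CPM per sample (dots, replicates 1 to 3) of the 42 members and of 3 other lists, each with its own linear axis from 0. The members and the mitosis list are lower in both 3D groups than in 2D, whereas the replication and end-joining lists are highest in 3D_7d, the end-joining list through XRCC5 and XRCC6. Without the 2 genes that rose most, the replication list sums to 5299 to 5462 CPM in 2D and 5478 to 5963 in 3D_7d.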

How the data were processed

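RNA-seq counts per gene were analysed for 9 samples of MEC1 cells. According to the study's methods and the submitters' processing notes, RNA was amplified with a low-input SMART-Seq protocol and sequenced as single reads, which the authors trimmed with Trimmomatic (version 0.39), aligned to GRCh38 with STAR (version 2.5.3a) and assigned to genes with featureCounts (version 1.6.4). The deposited values are raw counts per gene symbol, without normalization, beside the exonic length. How strand and reads in overlapping genes were counted is not given in the sources used here, so exonic bases shared between genes were computed from the annotation and are stated beside the members most concerned.

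Samples were grouped by culture and day from their labels. The labels do not say that replicates were separate cultures, so p-values measure only the spread between these samples, which may be technical. The filter kept genes whose CPM exceeded 1 in 3 or more samples. In R (version 4.3.3), edgeR (version 4.0.16) computed TMM factors, fitted 1 model with a mean per group to all 9 samples and applied the quasi-likelihood test to 3 contrasts. P-values were adjusted by the Benjamini-Hochberg method over all 13463 genes and called at 0.05. CPM are TMM-normalized, RPKM divide them by exonic length, and log2 values per sample use a prior count of 2. Intervals are 95% intervals of the fit.

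The members and lists were chosen with earlier results of these data known. Statistics are printed for called members, at most the 12 smallest adjusted p per contrast and direction, CPM per sample for called members whose log2 fold change reached 1 in either direction and for 1 or 2 others per role, and other lists contribute at most 2 genes per contrast and direction, of which 1 is not reported here. The 19 alternatives were DESeq2 size factors and its Wald test (version 1.42.0), total counts alone, TMM without immunoglobulin, ribosomal protein and mitochondrial genes, other filters, fits of the 6 samples compared, a replicate block, removal of a trend with gene length (loess, span 0.4), and each replicate left out. The code was tested on simulated counts. Promoter windows came from RefSeq.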

Additional observations from a re-analysis of the deposited data

How the results depend on the processing

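Over 19 alternatives and 3 comparisons, 2246 values of single members kept their side of the threshold, 80 lost a call and 68 gained one. None of the called values reversed. Among the 2246, 50 values changed sign, all of them past the threshold in neither fit. Members called higher in 3D_7d vs 2D numbered 3, 1 with total counts alone and 8 in a fit of the 6 samples compared. The share of all genes called higher in the same fits was 22.2%, 16.0% and 29.0%. In 3D_14d vs 3D_7d, where none was called higher, 1 was with DESeq2's Wald test, without a filter, with the gene length trend removed and with that and the replicate block. Leaving out 1 replicate at a time gave 1 to 6 higher and 13 to 21 lower members on day 7, 0 higher and 27 to 29 lower on day 14, and 0 to 1 higher and 19 to 26 lower between the time points.

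Scaling by total counts alone moved the median over all genes to -0.16 on day 7 and -0.18 on day 14, the share of called genes that were higher from 51.1% to 37.6% and from 52.5% to 33.0%, and the members lower on day 14 from 29 to 36. Over all genes, 2557 were higher in 3D_14d vs 2D, against 1603 with total counts alone, 1599 without 2D replicate 2 and 1564 without 2D replicate 3. In 3D_14d vs 3D_7d, 1834 were lower, against 1122 in the fit of 6 samples, 1092 when 3D_7d replicate 3 was left out and 1098 when 3D_7d replicate 2 was, and 1951 were higher, against 1193 without 3D_7d replicate 2.

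Same-numbered replicates did not deviate together (correlations of their deviations from the group means -0.10 to 0.19), so the numbers were not taken as pairs. With a replicate block, 2 members were higher and 16 lower on day 7 (ATR and BRCA1 lost), 30 were lower on day 14 (FANCE gained) and 24 between the time points (USP1 lost, RMI1 gained). XRCC2 and RAD54B in 3D_14d and BRIP1 in 3D_14d replicate 1 rest on the fewest counts.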

Other observations

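Targets of p53, a factor that arrests cells with damaged DNA, are given by their counts: of 23 tested, 6 were higher and 6 lower on day 7, 6 higher and 6 lower on day 14, and 2 higher and 2 lower in 3D_14d vs 3D_7d. The 26.1% in each direction is near the shares of all genes, 22.2% higher and 21.2% lower on day 7 and 19.0% and 17.2% on day 14. Between the time points 8.70% went each way, beside 14.5% higher and 13.6% lower of all genes. ZMAT3, an RNA-binding target of p53, had a log2 fold change of 1.15 ± 0.15 (SE, adjusted p = 8.6e-05) on day 7 and of 1.47 ± 0.15 (SE, adjusted p = 2.6e-05) on day 14. BTG2, an antiproliferative gene, had a log2 fold change of 1.34 ± 0.16 (SE, adjusted p = 5.7e-05) on day 7 and of 1.20 ± 0.16 (SE, adjusted p = 0.00017) on day 14. BBC3, which encodes the death factor PUMA, fell on day 7, with a log2 fold change of -2.14 ± 0.29 (SE, adjusted p = 0.00011), and was higher on day 14 than on day 7, with a log2 fold change of 2.71 ± 0.29 (SE, adjusted p = 0.00012). SESN2, a stress gene, had a log2 fold change of -1.40 ± 0.19 (SE, adjusted p = 0.00012) on day 7. POLH, a polymerase that passes damaged bases, had a log2 fold change of -1.58 ± 0.26 (SE, adjusted p = 0.00070) on day 14.

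Of 17 checkpoint mediators, 4 were higher and 3 lower on day 7, 10 lower on day 14, and 6 lower in 3D_14d vs 3D_7d. By edgeR 0 were higher in the last 2 comparisons, also at an unadjusted p under 0.05 and by DESeq2. On day 7 the shares, 23.5% higher and 17.6% lower, were near the 22.2% and 21.2% of all genes, and on day 14 58.8% were lower against 17.2%. Between the time points 35.3% were lower against 13.6%. Of all genes, 19.0% were higher on day 14 and 14.5% between the time points. CLSPN and TIMELESS, which link stalled replication forks to CHEK1, had a log2 fold change of -2.02 ± 0.28 (SE, adjusted p = 0.00049) and of -1.68 ± 0.17 (SE, adjusted p = 9.5e-05) between the time points. CDC25C, a phosphatase of mitotic entry that the checkpoint kinases inhibit, had a log2 fold change of -1.19 ± 0.22 (SE, adjusted p = 0.00088) on day 7 and of -1.62 ± 0.22 (SE, adjusted p = 0.00018) on day 14. ETAA1, an activator of ATR, had a log2 fold change of -0.76 ± 0.20 (SE, adjusted p = 0.0095) on day 7, while TIPIN, the partner of TIMELESS, rose with a log2 fold change of 0.56 ± 0.15 (SE, adjusted p = 0.0087).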
